A study of Mus musculus with 6 samples.

Results

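The genes described here belong to the response that cells mount when unfolded protein builds up in the endoplasmic reticulum (ER) or when amino acids run short. They were 35 genes chosen by name from textbook knowledge of the pathway, with earlier results of these data known. Of these, 34 were measured, among 22180 genes tested in all. Pdia4, a protein disulfide isomerase of the ER, shared its probe set with another gene, so its expression is not analysed here. The 34 were read as 3 parts, namely an ER arm of 14 folding and degradation genes, an ATF4 arm of 15 genes, and 5 sensors with their transcription factors.

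Expression was measured on 6 Affymetrix Mouse Gene 2.0 ST arrays, 1 per culture, in neurospheres from the subventricular zone of 2-month-old CD1 mice, an outbred stock. The 3 MG samples came from offspring whose mothers received 0.5 mg/kg MG, read here as methylglyoxal from the series title, by intraperitoneal injection. The 3 PBS samples came from offspring of mothers injected with PBS, and both groups were injected 2 times daily from gestational day 12 until birth. In both groups the subependymal cells were grown for 7 days in serum-free medium with EGF, FGF2, B27 and heparin. Methylglyoxal forms as a side product of sugar breakdown and reacts with proteins. The labels give neither the animals' sex nor whether animals of a group shared a mother, so a difference between litters and one between injections cannot be told apart, and they call the cultures primary in one place and secondary in another. All 13 measured neural stem and progenitor markers, among them Nes, Sox2 and Fabp7, were above a reference level of 5.02 on the log2 scale in both groups. That level is the 95th percentile of olfactory and vomeronasal receptor genes, and 61.8% of all genes were above it. So were 8 of 8 astrocyte, 9 of 9 oligodendrocyte lineage and 10 of 10 neuroblast and neuron markers, so passing it does not single out stem cells. Of other types, 4 of 9 microglial, 4 of 8 endothelial, 3 of 8 ependymal, 4 of 7 pericyte and smooth muscle and 1 of 6 choroid plexus markers were above it.

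As background, 3 sensors sit in the ER membrane. IRE1 splices the mRNA of the factor XBP1, ATF6 is cut to release a factor of its own, and PERK phosphorylates the initiation factor eIF2, which slows translation in general but favours that of ATF4. XBP1 and ATF6 drive chaperones and the machinery that removes misfolded protein (ER-associated degradation, ERAD), while ATF4 drives amino acid transport and synthesis, feedback genes and the factor CHOP. ATF4 also answers to kinases that sense amino acid lack and other stress, and secretory and fast-growing cells use both arms at rest.

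No difference between MG and PBS passed the test in any of the 34 genes. No member passed the adjusted threshold of 0.05 in limma's moderated test, and neither did any of all genes tested (0%). At an unadjusted p under 0.05 there was no member, against 3.21% of all genes, and at the same p with at least 1.5-fold there was none, against 0.455%. The lowest unadjusted p of a member was 0.172, for Ern1, and the adjusted p of every member was 0.9998 (limma, Benjamini-Hochberg). In no member did the MG and PBS values fail to overlap, whereas 7.34% of all genes had groups that did not overlap. Means were higher in MG in 21 of 34 members, or 61.8%, against 53.8% of all genes, and the median log2 difference was 0.02 over the members and 0.01 over all genes.

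The intervals show, for each gene taken alone, how large a difference between these samples the arrays could have missed. They rest on the spread within groups whose animals may share a mother, and they do not hold jointly over the genes. The 95% confidence interval of the log2 difference lay inside 1 to either side, which is a 2-fold change, for all 34 members and for 21576 of 22180 genes. It lay inside a 1.5-fold change for 26 members and for 16513 of all genes. Its median reach was 0.36 to either side over the members. Values are log2 signals of 1 probe set per gene, so levels are compared between arrays and not between genes. In cultures such as these, fewer expressing cells and less RNA per cell cannot be told apart.

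**Figure D1:**
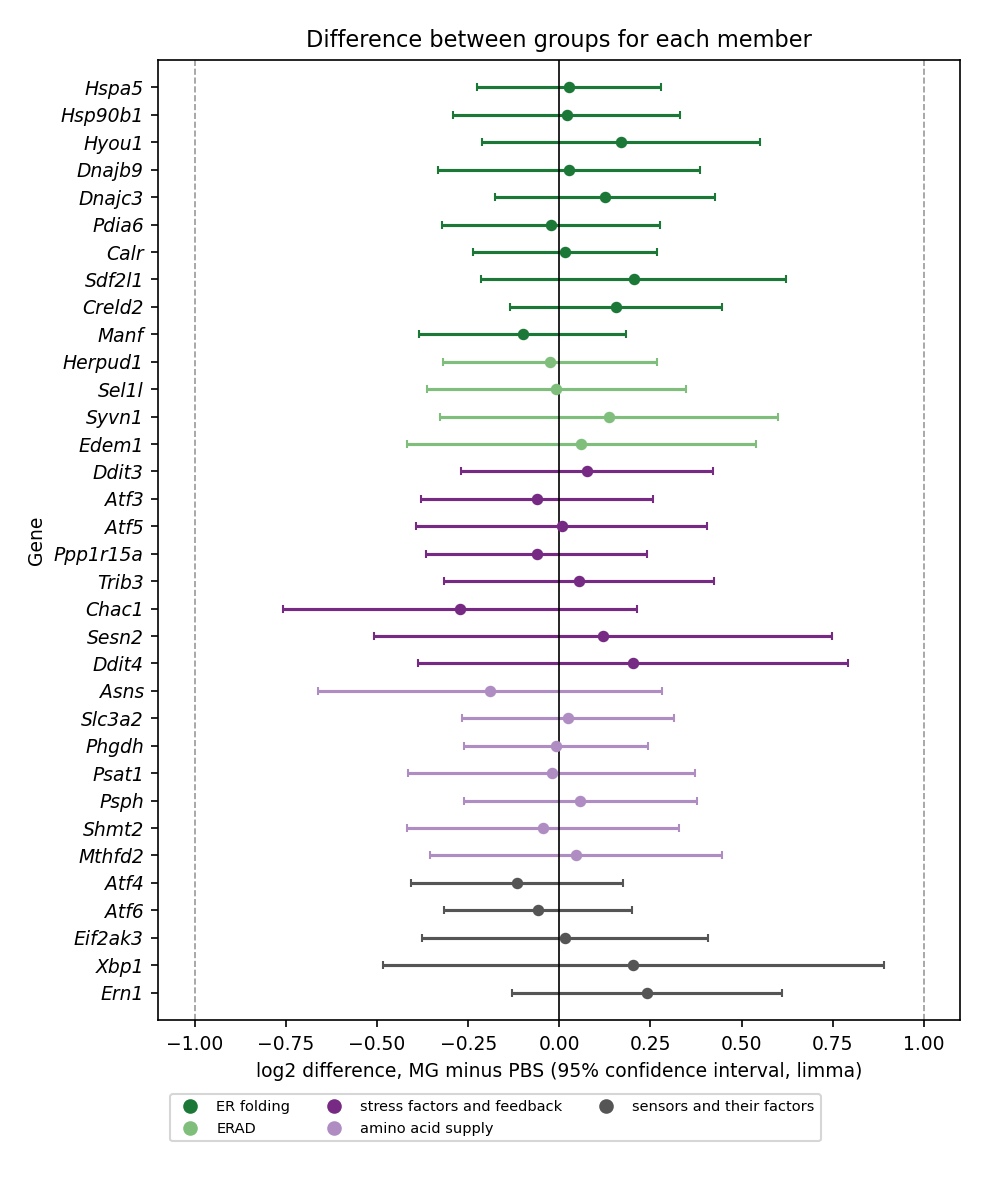
The log2 difference between MG and PBS (MG minus PBS, horizontal axis) is drawn for each of the 34 genes (vertical axis) with its 95% confidence interval from limma; dashed lines mark a 2-fold change and colours mark the role. Every interval crosses 0 and ends inside the dashed lines, and those of Xbp1, Ddit4 and Sesn2 are among the widest.

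The sensors and their factors were present in both groups, and Ern1 and Xbp1 differed most in mean. Ern1, which encodes IRE1, had log2 values of 6.84, 7.14 and 7.31 in MG replicates 1, 2 and 3, against 6.93, 6.66 and 6.98 in PBS replicates 1, 2 and 3. The 2 highest values were MG, but the lowest MG value lay within the PBS range. Its means were 7.10 ± 0.24 in MG and 6.86 ± 0.18 in PBS (SD, n = 3 each), a log2 difference of 0.24 (standard error 0.16, 95% interval -0.13 to 0.61). With 1 array left out it ran from 0.13 without MG replicate 3 and 0.14 without PBS replicate 2 to 0.37 without MG replicate 1, where limma gave an unadjusted p of 0.0504. Over all 6 arrays p was 0.3 in an exact permutation test, two-sided, where 0.1 is the smallest that 3 against 3 allows.

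Xbp1 varied more between arrays than any other member. It stood at 8.85, 8.34 and 7.97 in MG, against 8.43, 8.53 and 7.58 in PBS, a range of 1.26. Replicate 3 was the lowest array of both groups, PBS replicate 3 the lowest of all and MG replicate 1 the highest. The log2 difference was 0.20 (standard error 0.30), smaller than the SD within either group (0.44 in MG, 0.52 in PBS). It was -0.03 without MG replicate 1 and -0.10 without PBS replicate 3. The activity of XBP1 depends on splicing of its mRNA, and 1 value per gene does not tell the spliced form from the unspliced one.

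Eif2ak3, which encodes PERK, had 9.02, 8.73 and 8.66 in MG, against 8.93, 8.96 and 8.48 in PBS. As with Xbp1, the arrays numbered 3 were the lowest of both groups, and the log2 difference was 0.02 (standard error 0.17). Atf6 was steady, at 8.86, 8.93 and 8.77 in MG, against 8.97, 8.92 and 8.85 in PBS, a log2 difference of -0.06. Atf4 had 8.80, 8.58 and 8.75 in MG, against 8.75, 8.77 and 8.97 in PBS, with PBS replicate 3 highest and MG replicate 2 lowest. Its log2 difference was -0.12 (standard error 0.13, 95% interval -0.41 to 0.17), and because ATF4 protein is set largely by translation, its mRNA is an incomplete reading of the arm.

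**Figure D2:**
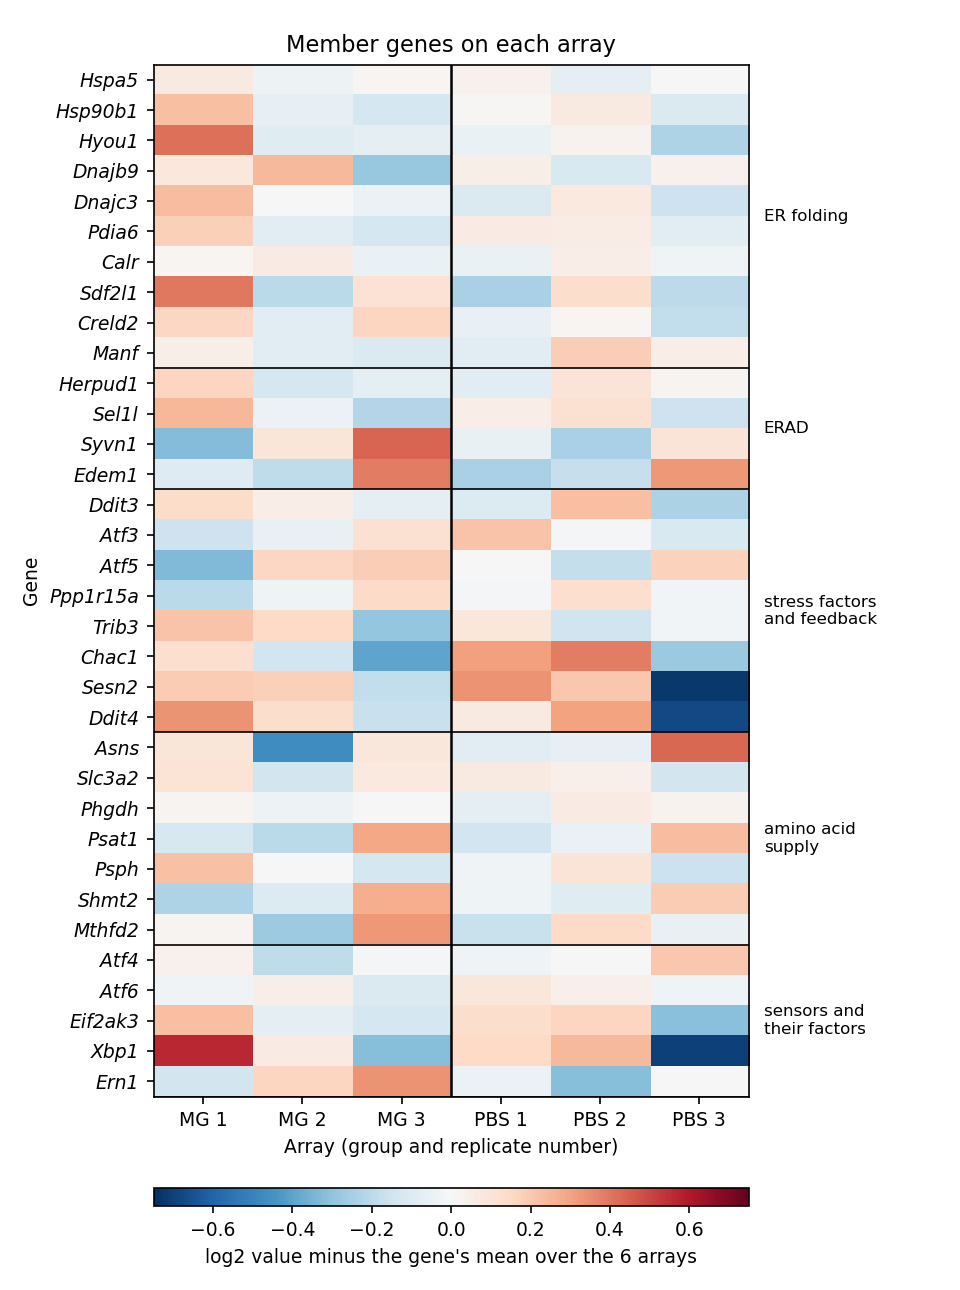
Each row is 1 of the 34 genes, grouped by role, and each column 1 array, MG on the left and PBS on the right; colour gives the log2 value minus the gene's mean over the 6 arrays. MG replicate 1 is red for most ER folding genes, and Xbp1, Sesn2 and Ddit4 are deep blue on PBS replicate 3.

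The promoters of the ER arm were searched for the elements known from this response. RefSeq promoter windows, from 250 bases before to 50 after the annotated start in GRCm38.p6, were held for 32 of the 35 genes, all but Atf6, Manf and Hyou1. The ER arm counts of windows include Pdia4, which has a window but no expression value here. Members were counted once per gene, also where a gene has several windows (Atf5 and Psat1), while all 32851 windows were counted singly. The ER stress element, CCAAT and CCACG set 9 bases apart and read on either strand, is the site that ATF6 binds together with NF-Y. It occurred in 7 of 13 windows of the ER arm, in 0 of 15 of the ATF4 arm, in 0 of 4 of the sensors and in 0.119% of all 32851 windows. Its second form, ATTGG and CCACG 1 base apart, was found in the Herpud1 window and in 0.0365% of all windows. The CCACG block alone, counted as a later addition, was in 13 of 13, 10 of 15 and 2 of 4 windows and in 32.8% of all. Since CCACG is part of both forms, every window with either form holds it by construction. Several of these genes are the ones in which the element was first described, so the count describes the list and is not independent evidence for it. Either form was in 8 of 13 windows of the arm. The matches in these 8 windows are shown, each read from the strand that holds CCAAT or ATTGG, 5′ to 3′, with the fixed bases in capitals and 10 bases on either side.
Hspa5 (window chr2:34771840-34772139, plus strand gene, 47 to 65 bases before the start): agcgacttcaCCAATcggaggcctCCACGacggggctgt
Hsp90b1 (window chr10:86705395-86705694, minus strand gene, 194 to 212 bases before the start): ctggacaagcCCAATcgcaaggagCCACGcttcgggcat
Hsp90b1 (window chr10:86705395-86705694, minus strand gene, 89 to 107 bases before the start, read from the other strand): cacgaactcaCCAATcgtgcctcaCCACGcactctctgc
Calr (window chr8:84846882-84847181, minus strand gene, 144 to 162 bases before the start, read from the other strand): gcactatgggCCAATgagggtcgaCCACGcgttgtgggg
Pdia6 (window chr12:17266339-17266638, plus strand gene, 80 to 98 bases before the start): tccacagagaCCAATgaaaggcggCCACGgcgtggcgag
Dnajc3 (window chr14:118937682-118937981, plus strand gene, 87 to 105 bases before the start): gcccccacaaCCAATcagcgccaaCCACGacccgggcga
Creld2 (window chr15:88819396-88819695, plus strand gene, 108 to 126 bases before the start, read from the other strand): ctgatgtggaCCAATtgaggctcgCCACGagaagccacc
Syvn1 (window chr19:6046326-6046625, plus strand gene, 26 to 44 bases before the start): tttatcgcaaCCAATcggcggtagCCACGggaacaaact
Herpud1 (window chr8:94386179-94386478, plus strand gene, 42 to 52 bases before the start, second form): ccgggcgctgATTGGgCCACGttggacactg
The 5 bases at either end are alike by construction, while the 9 bases between them differ from gene to gene. These exact matches lie between 26 bases (Syvn1) and 212 bases (Hsp90b1) before the start, and Hsp90b1 alone holds 2 of them. Copies with a changed base in either fixed block were not searched for, so the counts cover exact copies only.

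Hspa5, which encodes the chaperone BiP, is the standard readout of the response, and its whole window (chr2:34771840-34772139, plus strand) is given with the 2 fixed blocks in capitals.
Hspa5: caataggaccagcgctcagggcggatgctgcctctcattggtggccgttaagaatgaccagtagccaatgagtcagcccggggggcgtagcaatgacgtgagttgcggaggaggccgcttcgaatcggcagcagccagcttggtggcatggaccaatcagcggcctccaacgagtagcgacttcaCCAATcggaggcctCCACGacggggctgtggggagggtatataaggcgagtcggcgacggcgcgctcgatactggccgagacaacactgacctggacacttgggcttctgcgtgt
The exact match ends 47 bases before the start, just ahead of a tatataa run, and inexact copies elsewhere in the window were not marked. At the RNA level Hspa5 was among the steadiest members, with 9.30, 9.19 and 9.24 in MG, against 9.27, 9.16 and 9.23 in PBS. The 6 arrays spanned 0.13, the groups overlapped, and the log2 difference was 0.03 (standard error 0.11, 95% interval -0.22 to 0.28). The 8 measured genes with either form of the element averaged 0.09, -0.03 and 0.02 in MG and -0.03, 0.01 and -0.05 in PBS, relative to each gene's mean over the 6 arrays. The window of Pdia4, which was not measured, held neither form. The 4 measured ER arm genes whose window held neither form (Dnajb9, Sdf2l1, Sel1l and Edem1) averaged 0.16, -0.05 and -0.00 in MG and -0.10, -0.01 and 0.00 in PBS. In both sets MG replicate 1 was the highest array and MG replicate 2 lay inside the range of PBS.

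Several other folding genes were also highest on MG replicate 1. Hyou1, an ER chaperone of the HSP70 family that works with BiP, had 9.69, 9.19 and 9.21 in MG, against 9.23, 9.31 and 9.05 in PBS. One MG culture was above all PBS cultures and the others were inside their range, for a log2 difference of 0.17 (standard error 0.17). Sdf2l1, part of an ER chaperone complex, had 8.21, 7.62 and 7.93 in MG, against 7.57, 7.95 and 7.62 in PBS, a log2 difference of 0.20 (standard error 0.18, 95% interval -0.21 to 0.62). Again MG replicate 1 was the only MG array above the highest PBS value.

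Dnajc3, a co-chaperone that also restrains PERK, had 9.32, 9.08 and 9.04 in MG, against 8.98, 9.16 and 8.93 in PBS, a log2 difference of 0.13. Creld2, a secreted and ER-resident protein induced by ER stress, had 9.29, 9.05 and 9.29 in MG, against 9.08, 9.15 and 8.95 in PBS. For Creld2, 2 of 3 MG arrays were above every PBS array, and the log2 difference was 0.15 (standard error 0.13). Hsp90b1, the ER member of the HSP90 family, had 12.18, 11.89 and 11.82 in MG, against 11.96, 12.02 and 11.85 in PBS. Calr, a lectin chaperone that also stores calcium, spanned only 0.11 over the arrays, with 11.80, 11.85 and 11.73 in MG, against 11.74, 11.84 and 11.76 in PBS. The log2 difference was 0.02 for Hsp90b1 and 0.01 for Calr. Of the remaining folding genes, Dnajb9, a co-chaperone of BiP, differed by 0.03, the disulfide isomerase gene Pdia6 by -0.02 and Manf, a secreted ER protein with trophic effects on neurons, by -0.10.

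The 4 ERAD genes differed little in mean and varied in different directions among arrays. Herpud1, a membrane scaffold of the degradation complex, differed by -0.03 on the log2 scale and Sel1l, the partner of the ubiquitin ligase HRD1, by -0.01. Syvn1, which encodes HRD1, differed by 0.14 and Edem1, a lectin that steers glycoproteins to degradation, by 0.06. Edem1 and Syvn1 were highest on the arrays numbered 3 of both groups, whereas Sel1l was lowest there. For Edem1 the arrays numbered 3 were at 8.67 in MG and 8.62 in PBS, while the other 4 arrays lay between 8.05 and 8.19.

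The whole ER arm of 14 genes averaged 0.13, -0.04 and -0.00 in MG, against -0.06, 0.02 and -0.04 in PBS, in log2 units relative to the mean of the 6 arrays. The group means were 0.03 ± 0.09 in MG and -0.03 ± 0.04 in PBS (SD, n = 3 each), a difference of 0.06. It rested mainly on MG replicate 1, since the difference was 0.01 without that array. MG replicate 1 was the highest of the 6 arrays in 8 of 14 genes of the arm and in 6 of its 10 folding genes, against 21.1% of all genes tested. This was not particular to the arm. The 5 sensors and their factors (0.13) and 37 other ER folding and ERAD genes outside the members (0.12) also had their highest mean there. On the same array the 13 immediate early genes averaged -0.56, their lowest value of the 6 arrays. The 8 astrocyte markers (0.38) and the 9 oligodendrocyte lineage markers (0.28) were at their highest there, and the part of these shifts in the folding values was not tested.

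**Figure D3:**
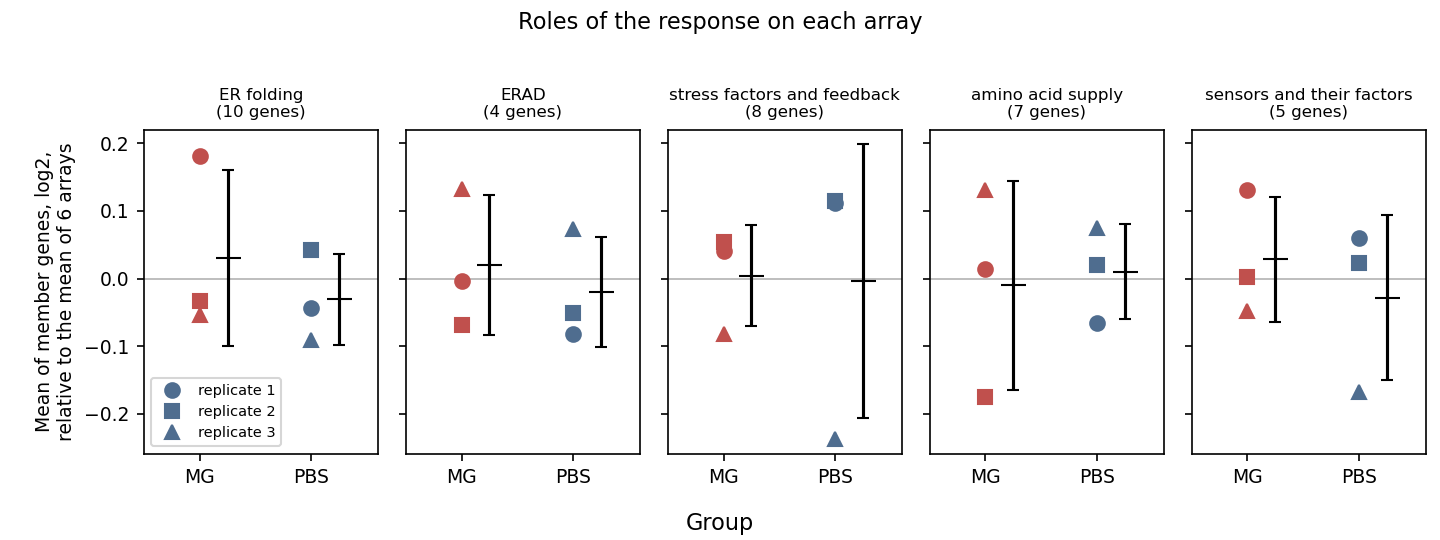
Mean of the genes of each role (log2, relative to each gene's mean over the 6 arrays) on each MG array, at left, and each PBS array, at right; symbols give the replicate number and the bar beside them the group mean ± SD (n = 3). MG and PBS overlap in all 5 roles, and PBS replicate 3 is the lowest array for the stress factors, at -0.24, and for the sensors, at -0.17.

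Among the ATF4 targets, the promoter windows held fewer exact matches. The element bound by ATF4 with a C/EBP partner was searched as TGATGNAAN on either strand. Counted by gene, it was in 4 of 15 members of the ATF4 arm, 1 of 13 of the ER arm (Herpud1) and 0 of 4 sensors. It was in 3.95% of all windows, counted singly. The stricter TGATGCAAT was in no member's window and in 0.192% of all, and the XBP1 site core TGACGTGG in no member's window and in 0.676% of all. These letters were looked for in 300 bases only, and functional sites of several members are known outside such a window. The 5 matches are shown from the strand that holds them, 5′ to 3′, with the element in capitals.
Atf3 (window chr1:191183284-191183583, minus strand gene, 103 to 111 bases before the start, read from the other strand): gcggacttggTGATGCAAGtgcgagaagg
Trib3 (window chr2:152344011-152344310, minus strand gene, 13 to 21 bases after the start, read from the other strand): cccgcccggcTGATGTAAAcctgagctaa
Chac1 (window chr2:119350992-119351291, plus strand gene, 186 to 194 bases before the start, read from the other strand): ctggcaggagTGATGCAACggcagggaag
Asns (window chr6:7693160-7693459, minus strand gene, 15 to 23 bases before the start): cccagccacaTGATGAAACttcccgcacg
Herpud1 (window chr8:94386179-94386478, plus strand gene, 105 to 113 bases before the start, read from the other strand): gggtgcgggcTGATGCAACccgccgtggt
Atf3, Chac1 and Herpud1 share the first 8 bases of the element, while Trib3 and Asns differ from them inside it. The Trib3 match is the only one of the 5 that lies after the start.

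Asns, which encodes asparagine synthetase, is the gene in which the amino acid response element was mapped, and its window (chr6:7693160-7693459, minus strand, read along the gene) has its match 15 to 23 bases before the annotated start.
Asns: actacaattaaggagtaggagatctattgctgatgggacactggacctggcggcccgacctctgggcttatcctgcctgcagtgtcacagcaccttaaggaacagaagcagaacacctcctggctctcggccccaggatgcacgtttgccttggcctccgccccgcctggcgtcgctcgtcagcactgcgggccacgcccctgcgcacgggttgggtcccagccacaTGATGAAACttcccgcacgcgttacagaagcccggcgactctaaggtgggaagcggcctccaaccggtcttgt
Asns RNA had log2 values of 9.07, 8.51 and 9.07 in MG, against 8.90, 8.92 and 9.41 in PBS. MG replicate 2 was the lowest array and PBS replicate 3 the highest, with the other 4 between them. The means were 8.88 ± 0.32 in MG and 9.07 ± 0.29 in PBS (SD, n = 3 each), a log2 difference of -0.19 (standard error 0.20, 95% interval -0.66 to 0.28). It rested on single arrays, being -0.01 without MG replicate 2 and -0.02 without PBS replicate 3.

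The other genes of amino acid supply were close to level. Slc3a2, the heavy chain shared by several amino acid transporters, had 10.86, 10.63 and 10.84 in MG, against 10.83, 10.80 and 10.62 in PBS, a log2 difference of 0.02. The serine synthesis genes Phgdh, Psat1 and Psph, which act in sequence, differed by -0.01, -0.02 and 0.06. Phgdh was one of the steadiest members, with a range of 0.14 over the 6 arrays. Shmt2, the mitochondrial enzyme that turns serine to glycine and a one-carbon unit, had 10.96, 11.09 and 11.47 in MG, against 11.16, 11.10 and 11.39 in PBS. The arrays numbered 3 were the highest of both groups for Shmt2, as for Psat1, and the log2 difference of Shmt2 was -0.04. Mthfd2, the next mitochondrial one-carbon enzyme, differed by 0.05.

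Chac1, which degrades glutathione and is a sensitive ATF4 and CHOP target, had the lowest MG mean relative to PBS of all members. It had 6.49, 6.21 and 5.97 in MG, against 6.67, 6.74 and 6.08 in PBS. The values of PBS replicates 1 and 2 were above every MG value, but PBS replicate 3 lay below 2 of the MG values. The log2 difference was -0.27 (standard error 0.21, 0.828-fold, 95% interval -0.76 to 0.21). With 1 array left out it ran from -0.14 without MG replicate 3, -0.15 without PBS replicate 2 and -0.19 without PBS replicate 1 to -0.48 without PBS replicate 3. The last had an unadjusted p of 0.0306 in limma, and leaving out both arrays numbered 3 gave -0.35 with an unadjusted p of 0.0488. Those were the only member values under 0.05 in any setting tried, and neither passed after adjustment over all genes.

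Ddit4 and Sesn2, both ATF4 targets that restrain mTORC1, were low on 1 PBS array. Ddit4, which is also induced by lack of oxygen, had 9.86, 9.66 and 9.36 in MG, against 9.59, 9.83 and 8.85 in PBS. Sesn2 had 10.06, 10.05 and 9.68 in MG, against 10.21, 10.07 and 9.15 in PBS. For both genes, replicate 3 was the lowest array of its group and PBS replicate 3 the lowest of all. The log2 difference was 0.20 for Ddit4 (standard error 0.26) and 0.12 for Sesn2 (standard error 0.27). Without PBS replicate 3 alone the differences were -0.09 and -0.21, so both turned sign. Without both arrays numbered 3 they were 0.05 for Ddit4, which kept its sign, and -0.09 for Sesn2.

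**Figure D4:**
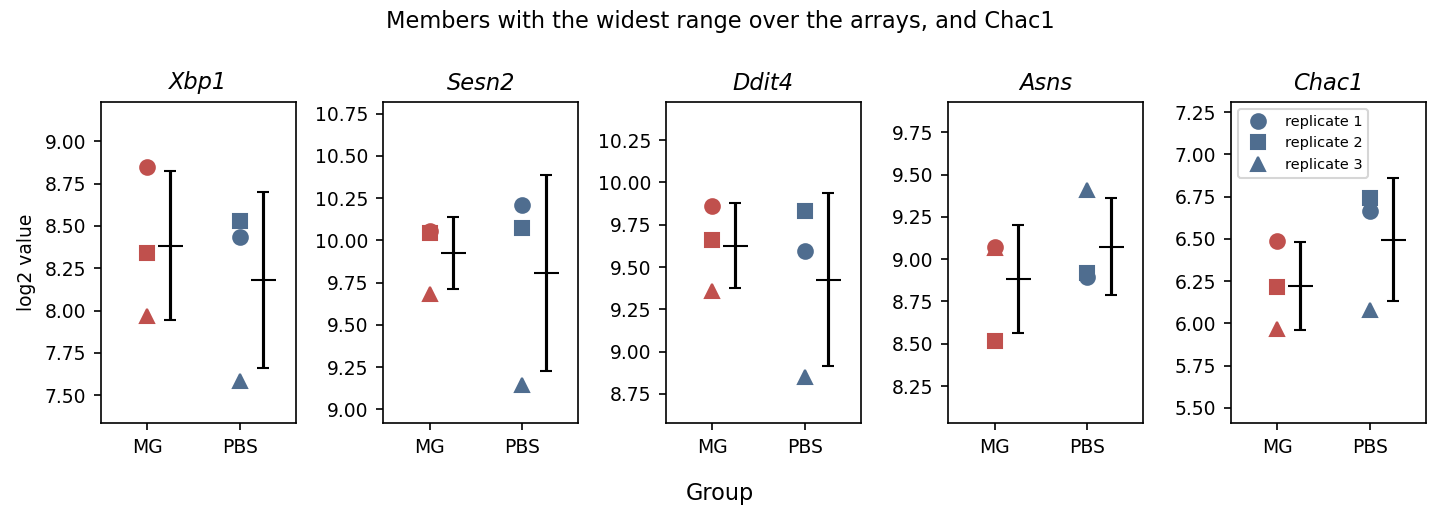
The log2 values of Xbp1, Sesn2, Ddit4 and Asns, the 4 members with the widest range over the arrays, and of Chac1, with MG at left and PBS at right in each panel; symbols give the replicate number and bars the mean ± SD (n = 3), and all panels span the same number of log2 units. Replicate 3 is the lowest array of both groups for Xbp1, Sesn2, Ddit4 and Chac1, but PBS replicate 3 is the highest array for Asns.

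The remaining stress factors and feedback genes differed little. Ddit3, which encodes CHOP, a factor linked to cell death under lasting stress, had 6.76, 6.68 and 6.56 in MG, against 6.52, 6.86 and 6.39 in PBS, a log2 difference of 0.08. Atf3, a stress factor that is also an early response gene, differed by -0.06. Atf5, a factor under the same translational control as ATF4, differed by 0.01. Ppp1r15a, which encodes GADD34 and restores translation, differed by -0.06, and Trib3, a pseudokinase that dampens ATF4, by 0.05.

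Set side by side, the arms gave no separation between the groups. The ATF4 arm averaged 0.03, -0.05 and 0.02 in MG, against 0.03, 0.07 and -0.09 in PBS, for group means of -0.00 ± 0.04 in MG and 0.00 ± 0.08 in PBS (SD, n = 3 each). The ATF4 arm minus the ER arm was -0.10, -0.01 and 0.02 in MG, against 0.08, 0.05 and -0.05 in PBS. MG replicate 1 and PBS replicate 1 were the extremes, while PBS replicate 3 lay among the MG arrays. The difference of that contrast, MG minus PBS, was -0.06, and its SD within groups was 0.07. That SD is the spread of single arrays and not the error of a difference between means, and no test was run. With the median of the members in place of the mean the difference was 0.02. Within the ATF4 arm, the stress factors were below the amino acid genes on PBS replicate 3, at -0.24 against 0.07, and on MG replicate 3, at -0.08 against 0.13. They were above them on MG replicates 1 (0.04 against 0.01) and 2 (0.05 against -0.18). The same held for PBS replicates 1 (0.11 against -0.07) and 2 (0.11 against 0.02).

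The members also varied by replicate number. In 12 of 34 members, or 35.3%, replicate 3 was the lowest array of both groups, against 21.2% of all genes. These were Hsp90b1, Dnajc3, Pdia6, Sel1l, Ddit3, Chac1, Sesn2, Ddit4, Psph, Atf6, Eif2ak3 and Xbp1. In 6 members, Syvn1, Edem1, Atf5, Psat1, Shmt2 and Ern1, it was the highest of both, or 17.6%, against 19.6% of all genes. Replicate 1 was the lowest of both groups in 0 members and replicate 2 in 1, against 9.79% and 7.98% of all genes. On the arrays numbered 3 the 14 S phase genes averaged 0.50 in MG and 0.46 in PBS, against -0.28 to -0.13 on the other MG arrays and -0.40 to -0.14 on the other PBS arrays. The 13 glycolysis and hypoxia genes were lowest there, at -0.63 in MG and -0.46 in PBS, against 0.10 to 0.50 elsewhere. The 8 astrocyte markers were also lowest there, at -0.45 in MG and -0.39 in PBS, against -0.06 to 0.38 elsewhere, and the part of these shifts in the members' values was not tested.

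Related genes outside the members gave a like result. Among all genes tested, 53.8% had higher means in MG and 3.21% had an unadjusted p under 0.05 in limma. Of 37 other ER folding and ERAD genes, 19 had higher (51.4%) and 18 lower means in MG, with a median log2 difference of 0.01. None of the 37 had an unadjusted p under 0.05. The 4 with the smallest p were Sec61b, a subunit of the ER protein channel (log2 difference 0.31), the ERAD gene Derl3 (0.16, with its PBS mean of 4.86 below the reference level), Mbtps2, a protease that cuts ATF6 (-0.16), and the disulfide isomerase gene Pdia3 (-0.12). The 16 cytosolic aminoacyl-tRNA synthetases, of which ATF4 drives many, were split 8 and 8 (median log2 difference 0.00), led by Yars (0.15), Cars (-0.10), Vars (0.15) and Wars (-0.08).

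Of 28 other ATF4 and amino acid response genes, 10 had higher (35.7%) and 18 lower means in MG, against 53.8% higher among all genes. The median log2 difference was -0.03. In this list 1 gene had an unadjusted p under 0.05, a share near the 3.21% of all genes. That gene was Cth, which makes cysteine from cystathionine, with 6.46, 6.57 and 6.50 in MG, against 6.11, 6.16 and 6.38 in PBS. All 3 MG values were above all 3 PBS values, and the log2 difference was 0.29 (standard error 0.12). Its unadjusted p was 0.0451 and its adjusted p 0.9998 in limma, so it did not pass. The next were Mthfd1l, a mitochondrial one-carbon enzyme (log2 difference -0.30), Eif4ebp1, a brake on cap-dependent translation (-0.21), and Cebpb, a C/EBP factor (0.16). The groups failed to overlap in 1 gene of this list, Cth, and in 0 of the synthetases. They also failed to overlap in 1 of the 37 ER genes, the ER reductase gene Dnajc10 (log2 difference -0.10), named after its values were seen. Among all genes tested, 7.34% had groups that did not overlap.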

How the data were processed

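RNA from 6 cultures was measured on 1 array each. The values deposited by the authors are log2 signals per probe set, a scale inferred from their range of 0.73 to 13.81. Per the submitters' processing notes, Partek 6.6 was used; background correction, normalisation and summarisation of the probes stand in no source used here. Probe sets were named through the platform annotation: of 41345, 23521 named 1 gene, 1814 several and 16010 none here. Each gene took the probe set that pairs with it alone and has the highest mean over the 6 arrays; no dim gene was left out. The reference level was exceeded in MG and in PBS by all 34 members and by 13704 of all genes. Array number limits the precision. Nothing says that the 3 samples of a group came from separate litters, so p-values measure the spread between these samples.

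MG was compared with PBS with limma 3.58.1 in R 4.3.3 (lmFit, eBayes, two-sided, no covariate), with Benjamini-Hochberg adjustment over 22180 genes. The limma fit was tried on simulated data with noise drawn independently for each array. That trial held no shared litters or replicate numbers, so it does not cover them. Arm values are means of members centred on their mean over the 6 arrays, with no test. The replicate numbers were not taken as pairs in the main test, and a replicate block was run as an alternative. Deviations from group means correlated at 0.22, 0.04 and 0.45 for numbers 1, 2 and 3. Between unlike numbers the correlations ran from -0.37 (MG replicate 1 with PBS replicate 3) to 0.26 (MG replicate 1 with PBS replicate 2). Members and lists were chosen with earlier results of these data known. Values on every array are given for sensors, members without overlap, the 4 lowest p and 2 highest levels per arm, and the 4 widest ranges; Hspa5 and Cth were added as a standard readout and as the single gene under 0.05. Related lists give their 4 lowest p. Promoter windows are RefSeq's, GRCm38.p6. Alternatives were a filter on dim genes, averaged or all probe sets, quantile normalisation, median centring, other moderation, array weights, a replicate block, arrays left out, and other summaries of the arms. Figures were drawn with matplotlib 3.10.9.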

Additional observations from a re-analysis of the deposited data

How the results depend on the processing

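No setting gave a member, or any gene, past the adjusted threshold in limma. Of all genes, 712 had an unadjusted p under 0.05, against 267 without dim genes, 1288 with every probe set as its own feature, 1163 with array weights, 1063 with the replicate block, and 416 to 956 with 1 array left out. No member had an unadjusted p under 0.05 except Chac1, so that the count was 1 without PBS replicate 3 and 1 without both arrays numbered 3, and 0 to 1 with arrays left out in turn. The replicate block, which leaves the differences as they are, left the count of members at 0, and it moved no member past the adjusted threshold. The ATF4 minus ER arm difference of -0.06 was 0.02 with the median of the members; over the other settings and with arrays left out it ran from -0.12 to -0.03. The ER arm difference of 0.06 ran from 0.01 to 0.09 and that of the ATF4 arm, -0.01, from -0.05 to 0.03 with 1 array left out. Of the 15 alternatives run on members, 4 (dim genes left out, both changes of moderation and the replicate block) leave every difference as it is by construction. Of the 374 member values under the others, 309 kept their direction and 65 turned sign, none of them past the threshold, 52 with 1 array left out. Among these others, averaging probe sets changed the difference of Edem1 alone (0.013, against 0.060). The kept directions of the other members in that setting were therefore fixed as well. With array weights the log2 difference turned sign for Hsp90b1 (-0.0026), Slc3a2 (-0.065), Mthfd2 (-0.077), Eif2ak3 (-0.067). Without both arrays numbered 3 the log2 difference turned sign for Herpud1 (0.0037), Sel1l (0.020), Sesn2 (-0.089), Slc3a2 (-0.072), Mthfd2 (-0.12), Eif2ak3 (-0.068). With quantile normalization the log2 difference turned sign for Atf5 (-0.046), Eif2ak3 (-0.017). With median centring the log2 difference turned sign for Atf5 (-0.0014). With 1 array left out in turn, the members that turned sign had the following ranges of log2 difference: Hspa5 -0.0014 to 0.051, Hsp90b1 -0.087 to 0.092, Dnajb9 -0.088 to 0.17, Pdia6 -0.12 to 0.039, Calr -0.011 to 0.045, Herpud1 -0.11 to 0.032, Sel1l -0.14 to 0.10, Syvn1 -0.050 to 0.33, Edem1 -0.12 to 0.24, Ddit3 -0.024 to 0.21, Atf3 -0.14 to 0.031, Atf5 -0.085 to 0.17, Ppp1r15a -0.15 to 0.024, Trib3 -0.041 to 0.21, Sesn2 -0.21 to 0.32, Ddit4 -0.085 to 0.40, Slc3a2 -0.041 to 0.098, Phgdh -0.050 to 0.018, Psat1 -0.17 to 0.089, Psph -0.040 to 0.14, Shmt2 -0.19 to 0.061, Mthfd2 -0.10 to 0.19, Eif2ak3 -0.14 to 0.10, Xbp1 -0.096 to 0.41. Those that kept it ran as follows: Hyou1 0.0063 to 0.26, Dnajc3 0.040 to 0.19, Sdf2l1 0.057 to 0.36, Creld2 0.10 to 0.24, Manf -0.17 to -0.033, Chac1 -0.48 to -0.14, Asns -0.28 to -0.0054, Atf4 -0.16 to -0.044, Atf6 -0.096 to -0.019, Ern1 0.13 to 0.37. The cause of these turns was not tested. Each member exceeded the reference level in MG and in PBS. The dimmest, Trib3, averaged 5.82 over the 6 arrays, below the array medians of the genes tested (5.88 to 5.92). Whether low signal damped any difference was not tested.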
